A study of Mus musculus with 18 samples.

Results

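The collagen chain genes are the genes whose symbol is Col, a number, the letter a and a number. Of the 23063 genes in the expression tables, 44 carry such a symbol. The rule reads symbols only, but the family was picked with earlier results of these data known. Their expression was measured by RNA sequencing in 18 libraries from sorted mouse thymic epithelial cells. The populations were cortical thymic epithelial cells (cTEC) and medullary thymic epithelial cells of a low and a high sort gate (mTEClo and mTEChi). Each was sorted from animals labelled wild type (WT) or Aire KO, with 3 libraries in each of the 6 groups. All mice were 6 to 8 weeks old. Every sample, WT samples included, carries the strain label B6.129S2-Airetm1.1Doi/J, so the labels do not separate the KO line from its WT controls by strain. Whether libraries of 1 group stand for different animals is not in the labels, so p-values measure only the spread between these libraries.

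Collagens are secreted or membrane-bound proteins in which chains wind together into a rope-like helix. Fibrillar collagens form the cables of connective tissue, bone and cartilage. Fibril-associated collagens (FACIT) decorate those cables, type IV collagens form the network of basement membranes, type VI collagens form beaded filaments around cells, and transmembrane collagens sit in the cell surface. Many collagens are strongly tied to 1 tissue, such as type II to cartilage and type X to the growth plate. In the thymus, Aire is the transcriptional regulator that lets mature medullary epithelial cells transcribe many genes of other tissues, and immature mTEClo can give rise to mTEChi. The comparisons below give the collagen genes across the populations, and with and without Aire.

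All 44 genes had at least 0.1 RPKM in at least 3 libraries and entered the test. Of these, 3 (Col11a1, Col24a1 and Col28a1) passed only through their WT mTEChi libraries, the group where they were highest. A fall in KO mTEChi and a rise over the other WT populations were therefore built into their passing. This holds for every comparison below that uses WT mTEChi, differences of genotype effects included. RPKM is the read signal on a gene per kilobase of gene model and per unit of the library's total. Levels of different genes are compared below with the limit that some genes may read too low. Of the housekeeping list, Gapdh averaged 3.67 RPKM and Actb 812 RPKM in WT mTEChi. The cause of the low Gapdh value was not tested. The aligned bases on genes ran from 4.54 to 18.1 Gb per library, and both extremes were WT mTEClo libraries. Within groups, libraries correlated at 0.9784 to 0.9959 on the log2 scale. Summed levels of the mTEC marker list (Aire, Fezf2, Cldn3, Cldn4, Tnfrsf11a and Ctss) ran from 1292 to 1336 RPKM in WT mTEChi and from 34.6 to 73.7 RPKM in WT cTEC. The cTEC marker Psmb11 was at 17.8 ± 5.72 RPKM (SD, n = 3) in WT cTEC and at 1.75 ± 0.218 RPKM in WT mTEChi. Aire was at 658, 681 and 693 RPKM in WT mTEChi and at 1126, 1001 and 1091 RPKM in KO mTEChi. A value summed over the whole gene does not show whether a part of it is deleted, so Aire RPKM does not check the genotype labels.

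The summed RPKM of the 44 genes was highest in WT mTEClo, at 1157 ± 145 (SD, n = 3), and lowest in KO mTEChi, at 133 ± 3.01. It was 723 ± 85.2 in WT cTEC, 576 ± 52.5 in KO cTEC, 851 ± 63.6 in KO mTEClo and 303 ± 8.22 in WT mTEChi. In WT mTEClo few genes carried most of the sum, while in WT mTEChi the largest share was the 9.90% of Col4a1. Type VI collagens made up 62.3% of the collagen RPKM in WT mTEClo, where Col6a1 and Col6a2 alone held 33.9% and 27.5%. WT mTEChi had less collagen RNA in sum, but more of the 44 genes were detected there. All 44 genes reached 0.1 RPKM in each of its 3 libraries, against 34 to 35 genes in the KO mTEChi libraries and 36 to 39 in the libraries of the other groups. Wide detection in WT mTEChi was not particular to collagens. Of all tested genes, 1747 passed the filter only through WT mTEChi, against 41 to 96 for each other group. The highest of the 6 group means lay in WT mTEChi for 19 genes, in WT cTEC for 8, in WT mTEClo for 8, in KO mTEClo for 7, in KO mTEChi for 2 and in KO cTEC for 0. The same count over all tested genes was not made.

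**Figure D1:**
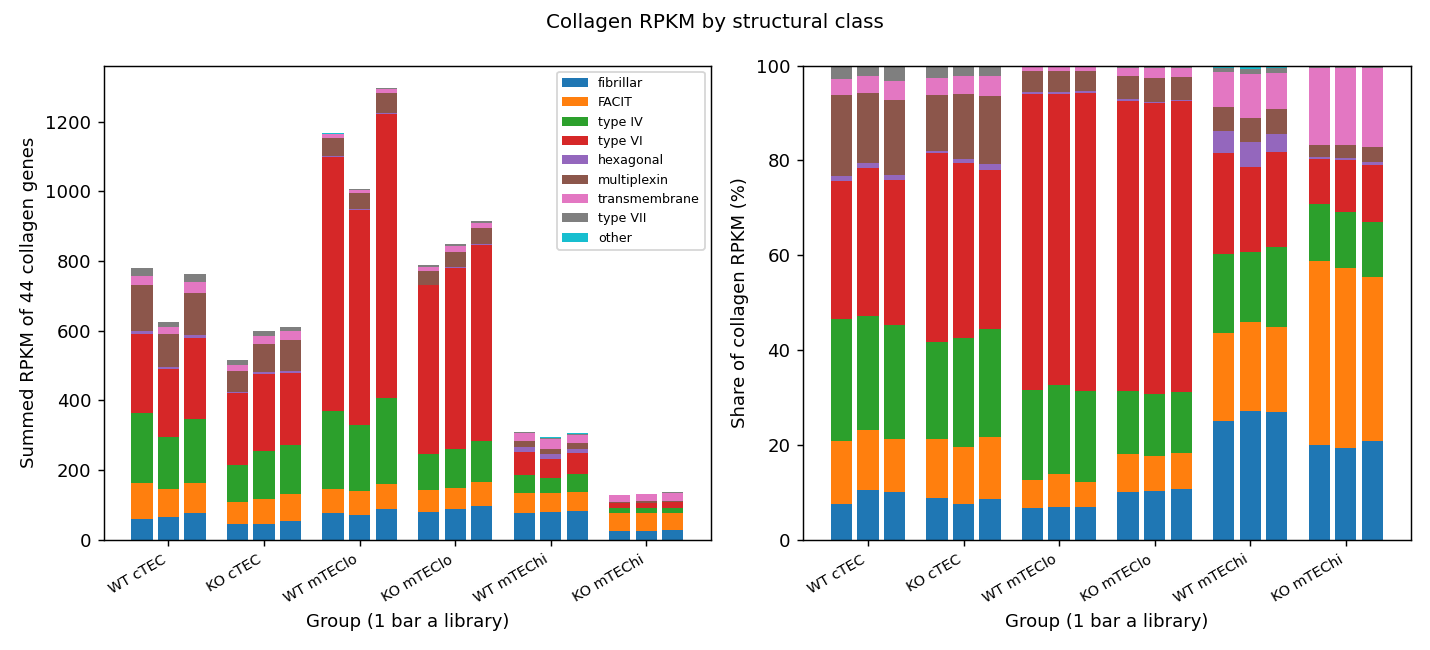
Collagen RPKM by structural class. The left panel stacks the summed RPKM of the 44 genes in each library and the right panel the share of each class in percent, with 1 bar for each of the 3 libraries of a group. Type VI collagens take 62.3% of the collagen RPKM in WT mTEClo and 10.8% in KO mTEChi, where the FACIT class takes 37.2%.

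**Figure D2:**
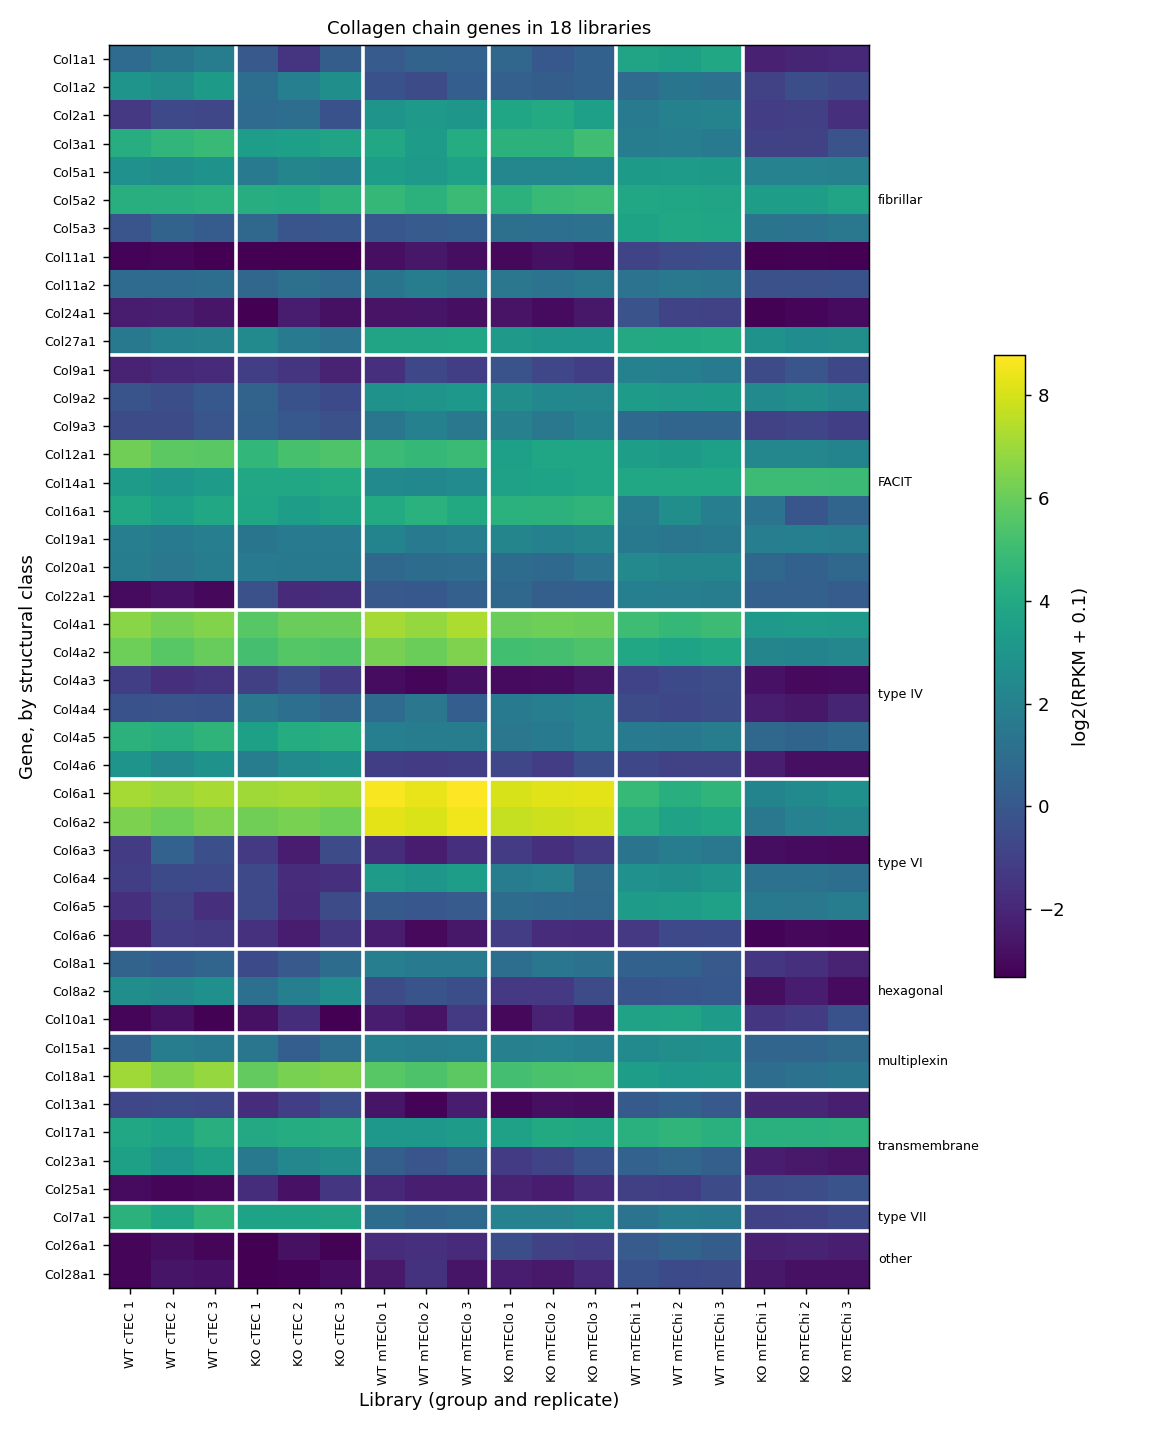
Levels of the 44 collagen chain genes as log2(RPKM + 0.1), with genes in rows by structural class and the 18 libraries in columns by group. Col6a1 and Col6a2 are the brightest rows in mTEClo, and Col1a1, Col10a1 and Col6a3 are bright in WT mTEChi and dark in KO mTEChi.

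KO and WT were compared first within mTEChi, the population with high Aire. Collagen genes were lower in KO mTEChi in every structural class. Of the 44 genes, 39 were called lower and 2 higher with limma on log2(RPKM + 0.1), at a Benjamini-Hochberg adjusted p under 0.05 over all tested genes. Of all 19451 tested genes, 52.8% were called lower and 9.57% higher. The median log2 fold change, KO minus WT, was -1.89 over the collagen genes and -0.39 over all tested genes, and 37 collagen genes fell by at least 2-fold. Leaving out the genes that passed the filter only through WT mTEChi, 36 of 41 collagen genes and 48.7% of 17704 genes were called lower. Every KO library was below every WT library for 40 of the 44 genes, against 60.1% of all tested genes. Some genes given by library below were chosen for libraries that do not overlap, so for them the gap between groups is a description. Quantile normalization moved the median of all genes to 0.08 and that of the collagen genes to -0.95, with 30 collagen genes called lower and 3 higher, against 24.7% and 31.2% of all tested genes. The collagen median minus the median of all genes was -1.50 without rescaling and -1.03 after quantile normalization. Among the genes named below, Col1a2, Col28a1, Col4a3, Col4a5, Col6a6, Col8a1 and Col9a3 were no longer called after quantile normalization. In such bulk samples, fewer cells of a type and less RNA per cell cannot be told apart.

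Among the 11 fibrillar genes, 10 were lower in KO mTEChi. Col1a1, which encodes the major chain of type I collagen of bone, skin and tendon, was at 13.3, 11.6 and 14.6 RPKM in WT mTEChi. In KO mTEChi it was at 0.115, 0.139 and 0.151 RPKM. Every KO library was far below every WT library, and Col1a1 fell by 5.81 on the log2 scale (SE 0.35, limma adjusted p = 1.1e-09), the largest fall among the collagen genes. Its partner Col1a2 was at 1.78, 2.50 and 2.28 RPKM in WT and at 0.423, 0.657 and 0.507 RPKM in KO, and it fell by 1.86 (SE 0.32). Col2a1, the cartilage chain, was at 3.03, 3.87 and 4.19 RPKM in WT and at 0.361, 0.389 and 0.221 RPKM in KO, and it fell by 3.17 (SE 0.30). Col5a1, which sets the width of fibrils together with other type V chains, was at 9.63, 10.05 and 9.67 RPKM in WT and at 4.07, 4.01 and 3.71 RPKM in KO. It fell by 1.30 (SE 0.12) with no overlap of the libraries. Col5a3 fell by 2.43 (SE 0.21), from 12.7, 14.5 and 14.4 RPKM to 2.39, 2.32 and 2.78 RPKM. Col3a1, the chain of reticular and vascular fibrils, fell by 2.46. Col11a2 and Col27a1 fell by 1.75 and 1.35. Col11a1 and Col24a1, which passed the filter only through WT mTEChi, fell by 2.69 and 2.43. Col5a2, named after its values were seen, was the fibrillar gene that was not called. It stood at 14.1 ± 0.851 RPKM (SD, n = 3) in WT and 11.5 ± 1.44 RPKM in KO, a difference of -0.29 (SE 0.14, limma adjusted p = 0.077).

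**Figure D3:**
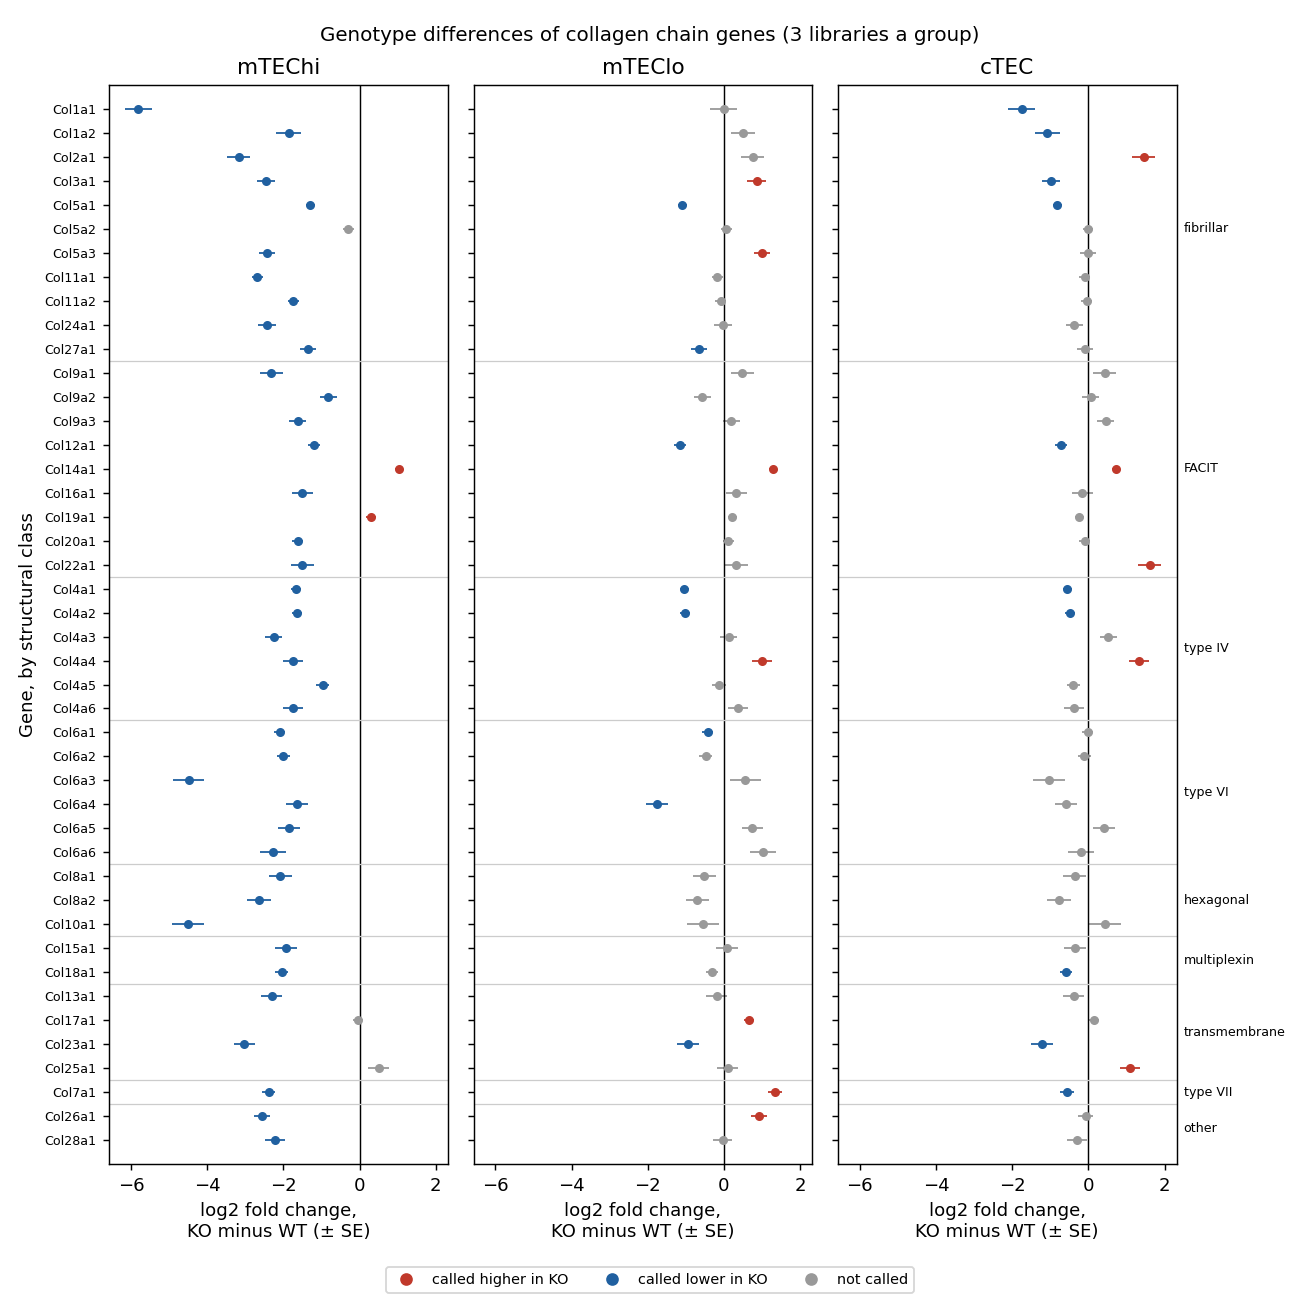
Log2 fold change, KO minus WT, of each collagen gene in mTEChi, mTEClo and cTEC, with bars for the standard error and 3 libraries a group. In mTEChi 39 points lie to the left of 0 as called lower, with Col1a1 at -5.81, while mTEClo and cTEC hold 8 and 10 genes called lower.

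The hexagonal network collagens, short-chain collagens of growth plate and eye, all fell in KO mTEChi. Col10a1, the collagen of cartilage cells that enlarge before bone forms, was at 12.4, 13.4 and 9.75 RPKM in WT mTEChi and at 0.282, 0.343 and 0.736 RPKM in KO mTEChi. The 3 KO libraries were all below 1 RPKM, and Col10a1 fell by 4.51 (SE 0.42, limma adjusted p = 1.6e-07). The gene lies on the plus strand at chr10:34389981-34397085 (mm10), inside the interval of Nt5dc1 on the minus strand. Nt5dc1 was at 8.18 RPKM in WT mTEChi and at 8.92 RPKM in KO mTEChi, a level close to its mean in the other groups. Col8a1 and Col8a2 fell by 2.08 and 2.64. Of the 4 transmembrane genes, Col13a1 and Col23a1 fell by 2.31 and 3.03 and the other pair was not called. Col17a1, the collagen of the hemidesmosomes that anchor basal epithelial cells, was at 21.6 ± 2.07 RPKM (SD, n = 3) in WT and 20.9 ± 0.708 RPKM in KO. It was named after its values were seen. Its difference was -0.05 (SE 0.13) and its sign changed with the scaling, at 0.07 after quantile normalization and 0.19 when centred on housekeeping genes. Col25a1, a brain collagen also named after its values were seen, was at 0.446 ± 0.119 RPKM in WT and 0.661 ± 0.0711 RPKM in KO (difference 0.50, SE 0.27).

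The stretches upstream of the start of Col10a1 and Col17a1 are shown because each gene was the most abundant of its class in WT mTEChi, and Col10a1 fell in KO while Col17a1 was not called. Each is 250 bases, written 5′ to 3′ on the strand of the gene, from the RefSeq promoter table of build GRCm38.p6. Capitals mark matches, on either strand, to the motif TATAAA, to the motif GGGCGG or to the motif CCAAT.
Col10a1, chr10:34389731-34389980, plus strand: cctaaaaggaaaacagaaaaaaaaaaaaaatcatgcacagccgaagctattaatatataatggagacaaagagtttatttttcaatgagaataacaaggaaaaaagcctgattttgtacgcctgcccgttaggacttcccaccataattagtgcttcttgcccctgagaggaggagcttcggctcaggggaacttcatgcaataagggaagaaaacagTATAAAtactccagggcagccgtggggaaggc
Col17a1, chr19:47692043-47692292, minus strand: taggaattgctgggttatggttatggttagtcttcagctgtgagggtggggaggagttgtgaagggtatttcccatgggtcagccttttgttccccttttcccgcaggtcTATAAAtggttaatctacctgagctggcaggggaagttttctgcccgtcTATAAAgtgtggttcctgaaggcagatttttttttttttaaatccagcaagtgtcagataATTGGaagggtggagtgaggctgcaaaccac
Both carry TATAAA. RefSeq windows of 300 bases, from 250 before to 50 after the start, were found for 35 of the 44 genes. TATAAA, on either strand, was in 5 of these 35 windows and in 13.6% of all 32851 windows of the table. GGGCGG was in 22 of the 35 windows and in 35.7% of all windows, and CCAAT was in 12 of the 35 and in 37.4%. These matches describe letters in a window and not bound sites. The median number of CG pairs was 12 over the collagen windows and 7.0 over all windows. It was 8.5 over the 16 windows of genes that were higher in WT mTEChi than in WT mTEClo and 16 over the 10 windows of genes that were lower there. Over the 9 windows of genes not called in that comparison it was also 16. The 16 windows of higher genes include Col11a1, Col24a1 and Col28a1 (9, 6 and 0 CG pairs), which passed the filter only through WT mTEChi. The same split over the windows of all tested genes was not made, so these medians do not set the collagen genes apart.

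All 6 type VI genes were lower in KO mTEChi. Col6a1 was at 27.2, 19.5 and 23.8 RPKM in WT and at 4.35, 5.40 and 6.59 RPKM in KO, and it fell by 2.09 (SE 0.14). Col6a2 was at 18.5, 12.6 and 14.8 RPKM in WT and at 2.77, 3.97 and 4.64 RPKM in KO, and it fell by 2.0 (SE 0.17). Neither chain overlapped between genotypes. Col6a3, the large chain that completes the classical filament, was at 2.43, 3.24 and 2.78 RPKM in WT and at 0.0356, 0.0287 and 0.0249 RPKM in KO. It fell by 4.48 (SE 0.41, limma adjusted p = 1.3e-07), the steepest fall of the class. Col6a4, Col6a5 and Col6a6, later-described chains that can take the place of Col6a3, fell by 1.64, 1.86 and 2.27.

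All 6 type IV genes were lower in KO mTEChi as well. Col4a1, one of the chains found in nearly all basement membranes, was at 32.2, 26.3 and 31.6 RPKM in WT and at 9.22, 9.74 and 9.0 RPKM in KO (it fell by 1.67, SE 0.13). Its partner Col4a2 fell by 1.64 (SE 0.13). Col4a3 and Col4a4, chains of kidney and lung basement membranes, fell by 2.26 and 1.75, and Col4a5 and Col4a6 fell by 0.97 and 1.76. After quantile normalization Col4a4 and Col4a6 were at 0.05 and 0.04, so their direction depended on the scaling. The multiplexins Col15a1 and Col18a1, basement membrane proteoglycans, fell by 1.92 and 2.05. Col7a1, the anchoring fibril of skin, fell by 2.39, and the remaining Col26a1 and Col28a1 fell by 2.56 and 2.22, of which Col28a1 passed the filter only through WT mTEChi.

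The FACIT class held both genes called higher in KO mTEChi. Col14a1, a fibril-associated chain of skin and tendon, was at 15.3, 14.5 and 15.1 RPKM in WT and at 30.9, 31.0 and 29.9 RPKM in KO. All KO libraries were above all WT libraries, and Col14a1 rose by 1.03 (SE 0.09, limma adjusted p = 7.4e-08). With 23.1% of the collagen RPKM it was the most abundant collagen of KO mTEChi. Col19a1, a minor chain of basement membrane zones, was at 2.88, 2.61 and 2.88 RPKM in WT and at 3.51, 3.65 and 3.25 RPKM in KO (0.30, SE 0.12, limma adjusted p = 0.045). That call was lost without any 1 of the 6 mTEChi libraries, with values from 0.26 to 0.35, and the value was 1.26 after quantile normalization. The other 7 FACIT genes fell. Col12a1 fell by 1.20 (SE 0.16), from 11, 9.62 and 11.4 RPKM to 4.75, 4.74 and 4.29 RPKM. The type IX chains Col9a1, Col9a2 and Col9a3, which coat cartilage fibrils, fell by 2.32, 0.82 and 1.63, and Col16a1, Col20a1 and Col22a1 fell by 1.50, 1.62 and 1.51.

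In mTEClo the collagen genes split. Limma called 7 of the 44 genes higher and 8 lower in KO mTEClo, against 7.93% of all tested genes higher and 8.04% lower. Col7a1 was at 1.81, 1.43 and 1.63 RPKM in WT mTEClo and at 3.96, 3.95 and 4.88 RPKM in KO mTEClo, a rise by 1.34 (SE 0.18, limma adjusted p = 0.00022). Col14a1 rose by 1.27 (SE 0.09), from 5.50, 4.88 and 5.62 RPKM to 12.2, 12.8 and 14.2 RPKM. Col5a3 rose by 1.01 (SE 0.21), from 0.890, 1.03 and 1.11 RPKM to 2.09, 2.06 and 2.23 RPKM. These 3 genes were chosen as the largest rises without overlap. Over all 44 genes, every KO mTEClo library was above every WT library for 12 and below for 13, against 17.2% and 22.6% of all tested genes. Col4a4, Col26a1, Col3a1 and Col17a1 rose by 1.0, 0.92, 0.85 and 0.65.

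The falls in KO mTEClo included the most abundant chains. Col6a4 was at 10.1, 8.33 and 11.1 RPKM in WT and at 3.31, 3.78 and 1.74 RPKM in KO, and it fell by 1.77 (SE 0.29). Col12a1 fell by 1.16 (SE 0.16), from 30.5, 26.6 and 30.04 RPKM to 11.4, 13.6 and 14.0 RPKM, and Col5a1 fell by 1.10 (SE 0.12), from 10.5, 8.99 and 11.9 RPKM to 4.77, 4.74 and 4.93 RPKM. Col4a1 was at 139, 116 and 156 RPKM in WT and at 64.1, 67.7 and 66.7 RPKM in KO (it fell by 1.04, SE 0.13), with Col4a2 lower as well (-1.03). Col23a1 and Col27a1 fell by 0.94 and 0.66. Col6a1, the most abundant collagen gene of the 18 libraries, was at 402, 335 and 438 RPKM in WT and at 267, 286 and 315 RPKM in KO. It fell by 0.43 (SE 0.14, limma adjusted p = 0.049), and this call was lost in 5 of the 6 fits that left out 1 mTEClo library. Col6a2 was at 315, 273 and 365 RPKM in WT and at 210, 229 and 244 RPKM in KO, and its difference of -0.47 (SE 0.17, limma adjusted p = 0.071) was not called. Col1a1 was at 1.0, 1.35 and 1.29 RPKM in WT and at 1.49, 0.917 and 1.26 RPKM in KO, which overlap. Without WT mTEClo replicate 1 or 3, or KO mTEClo replicate 1 or 2, 5 genes were called lower in place of 8. Centred on housekeeping genes, 6 were higher and 12 lower, against 4.47% and 18.3% of all tested genes.

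In cTEC, limma called 5 of the 44 genes higher and 10 lower in KO, against 13.3% and 6.76% of all tested genes. Col2a1 was at 0.301, 0.544 and 0.502 RPKM in WT cTEC and at 1.79, 1.96 and 0.718 RPKM in KO cTEC, a rise by 1.45 (SE 0.30, limma adjusted p = 0.0029). Col4a4 rose by 1.34 (SE 0.26), from 0.737, 0.765 and 0.723 RPKM to 2.67, 2.05 and 1.51 RPKM. Col14a1 rose by 0.72 (SE 0.09), from 9.87, 8.13 and 10.3 RPKM to 15.3, 14.6 and 16.9 RPKM, so that it was higher in KO in all 3 populations. Col22a1 and Col25a1 rose by 1.61 and 1.10. Col1a1 was at 1.76, 2.46 and 3.33 RPKM in WT and at 0.925, 0.254 and 1.09 RPKM in KO, and it fell by 1.75 (SE 0.35), and Col1a2 fell by 1.07. Col23a1, a transmembrane collagen, fell by 1.21 (SE 0.28), from 11.6, 7.97 and 11.8 RPKM to 2.87, 4.71 and 6.20 RPKM. Col3a1 fell by 0.98 (SE 0.24), from 18.3, 24.6 and 28.4 RPKM to 11, 11.2 and 13.4 RPKM. Col5a1 fell by 0.81, Col12a1 by 0.71, Col18a1 by 0.59, Col7a1 by 0.56, Col4a1 by 0.55 and Col4a2 by 0.49. None of the 6 type VI genes was called, and Col6a1 stood at 143, 125 and 145 RPKM in WT and at 132, 141 and 134 RPKM in KO.

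The cTEC calls rest on a spread estimated over all 18 libraries. With only the 6 cTEC libraries in the limma fit, 0 collagen genes were called in either direction, 5 were higher and 9 lower at an unadjusted p under 0.05, and 12 genes were called higher and 6 lower over the whole table. All 6 listed mTEC markers were called higher in KO cTEC, and their summed level ran from 163 to 353 RPKM in KO cTEC and from 34.6 to 73.7 RPKM in WT cTEC. The part of these markers in the collagen differences of cTEC was not tested. Without KO cTEC replicate 3, 15 genes were called lower.

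The 3 genotype comparisons share no library, and 5 genes (Col4a1, Col4a2, Col5a1, Col12a1 and Col23a1) were called lower in KO in each of them. Only Col14a1 was called higher in all 3. The same counts over all tested genes were not made. With only the cTEC libraries in the fit, 0 collagen genes were called in cTEC, so both counts rest on the fit of all 18 libraries. Most falls were larger in mTEChi. The genotype effect in mTEChi minus that in mTEClo was called lower for 35 of the 44 genes and higher for 0 with limma (0 also at an unadjusted p under 0.05), against 40.9% and 6.01% of all tested genes. After quantile normalization 22 were called lower and 2 higher, against 18.3% and 23.4% of all tested genes. Against cTEC, the effect in mTEChi was called lower for 36 genes and higher for 1, against 44.8% and 5.13% of all tested genes. The split after quantile normalization was 19 lower and 3 higher, against 20.3% and 27.5%. The Col1a1 effect differed by -5.81 (SE 0.50) from that in mTEClo and by -4.06 (SE 0.50) from that in cTEC. For Col4a1 the difference from mTEClo was -0.63 (SE 0.18, limma adjusted p = 0.009). For Col12a1 it was -0.04 (SE 0.23) and not called, with a 95% interval from -0.52 to 0.45.

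WT mTEChi were then compared with WT mTEClo. In mTEChi the abundant Col6a1, Col6a2, Col4a1 and Col4a2 were lower, and Col10a1, Col5a3 and Col6a3 were among the genes that were higher. Of the 44 genes, 21 (47.7%) were called higher and 14 (31.8%) lower in mTEChi, near the 41.6% and 31.1% of all tested genes. The 21 include Col11a1, Col24a1 and Col28a1 (2.15, 2.02 and 1.75), which passed the filter only through WT mTEChi. With the filter of 1 RPKM, 14 of 37 collagen genes were higher and 14 lower, against 35.1% and 38% of all tested genes. Col10a1 was at 0.0904, 0.0571 and 0.318 RPKM in WT mTEClo and at 12.4, 13.4 and 9.75 RPKM in WT mTEChi, a rise by 5.67 (SE 0.42, limma adjusted p = 6.5e-09). Col5a3 rose by 3.65 (SE 0.21) and Col6a3 by 3.47 (SE 0.41), the latter from 0.200, 0.0905 and 0.212 RPKM in mTEClo. Col6a5 rose by 3.40 and Col1a1 by 3.34 (SE 0.35). Col9a1, Col13a1, Col4a3 and Col26a1 rose by 3.01, 2.95, 2.32 and 2.07. Col14a1 and Col17a1 rose by 1.47 and 1.23.

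The falls were led by Col6a2, at -4.37 (SE 0.17), and Col6a1, at -4.06 (SE 0.14), the most abundant collagen genes of mTEClo. Col4a2 was at 77.7, 66.0 and 87.2 RPKM in WT mTEClo and at 15.4, 12.7 and 14.7 RPKM in WT mTEChi, and it fell by 2.42 (SE 0.13). Col4a1 fell by 2.18, Col18a1 by 2.33, Col3a1 by 2.05, Col4a4 by 1.49 and Col2a1 by 1.15. Col5a1 differed by -0.09 (SE 0.12) and was not called. After quantile normalization 14 genes were called higher and 19 lower, against 29.6% and 39.3% of all tested genes, Col25a1 changed from 1.29 to -0.55, and Col1a2 and Col4a3 (0.37 and 0.47) were no longer called. Pericyte and smooth muscle markers moved between these groups as well, with 4 of 7 lower and 1 higher in WT mTEChi. Tagln and Acta2, contractile proteins of smooth muscle, went from 332 and 194 RPKM in WT mTEClo to 16.8 and 16.0 RPKM in WT mTEChi. Other markers of the list did not follow. Rgs5 and Myh11 were at 117 and 35.6 RPKM in WT mTEClo and at 112 and 35.7 RPKM in WT mTEChi. Cspg4 went from 0.224 to 2.10 RPKM. The list summed to between 661 and 809 RPKM in WT mTEClo and to between 189 and 211 RPKM in WT mTEChi. Of 11 fibroblast markers 5 were lower and 5 higher in WT mTEChi, and of 9 endothelial markers 2 were lower and 0 higher. The part of these markers in the collagen differences was not tested.

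In KO cells the same comparison gave 6 genes higher and 29 lower in mTEChi, against 23.4% and 43.7% of all tested genes. The WT and KO comparisons share no library. Of the 21 genes higher in WT mTEChi, 6 were also called higher in KO mTEChi, 9 were called lower there and 6 were not called. All 14 genes lower in WT mTEChi were also called lower in KO mTEChi. The same crossing over all tested genes was not made, so these counts do not set the collagen genes apart. The 6 genes called higher in both were Col6a5, Col10a1, Col13a1, Col14a1, Col17a1 and Col25a1, at 0.79, 1.71, 0.83, 1.23, 0.53 and 1.69 in KO. Col1a1 was higher by 3.34 in WT mTEChi and lower by -2.47 (SE 0.35) in KO mTEChi, and Col6a3 was at 3.47 in WT and -1.57 in KO. Over the 44 genes the log2 fold changes of both genotypes had a Pearson r of 0.77 and a Spearman rho of 0.70, as a description across genes, which are not independent replicates.

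**Figure D4:**
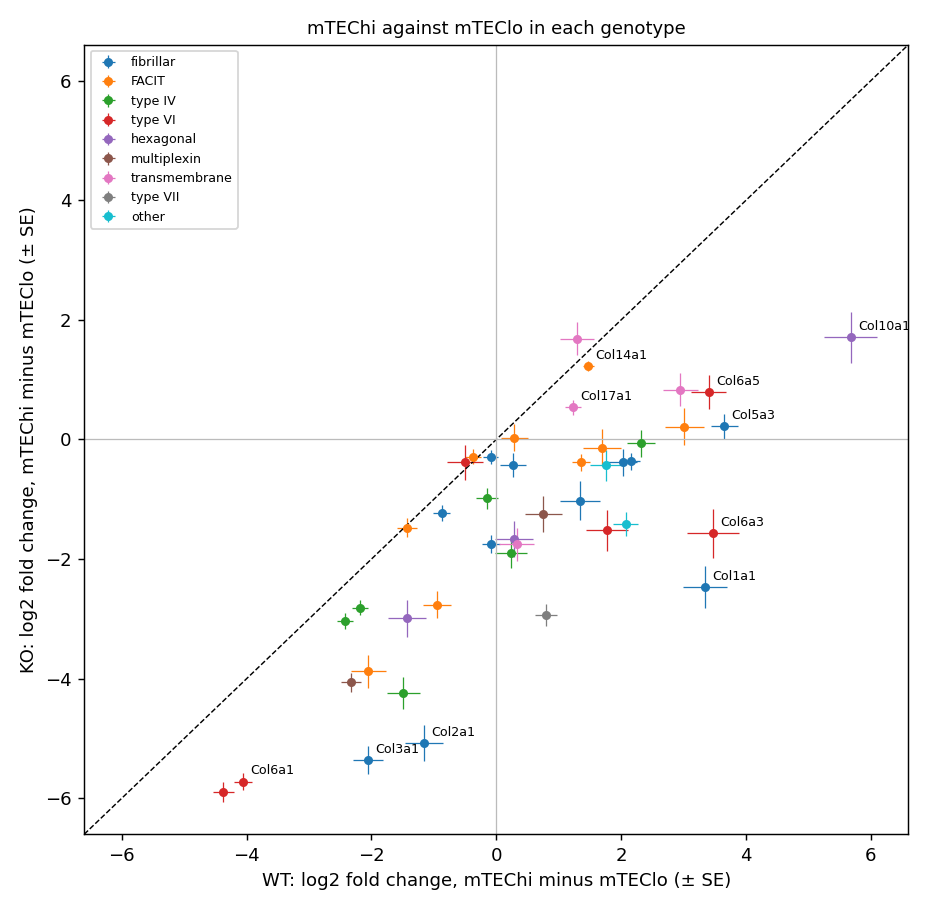
Log2 fold change, mTEChi minus mTEClo, of the 44 collagen genes in WT (x axis) and KO (y axis), with standard errors and a dashed line of equal change. Col14a1 lies near the line, at 1.47 in WT and 1.23 in KO, while Col1a1 lies at 3.34 and -2.47.

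WT cTEC, whose cells line the thymic cortex, were then set against both medullary populations. Compared with WT cTEC, 20 genes were higher and 17 lower in WT mTEClo (24.6% and 18.2% of all tested genes), and 25 were higher and 15 lower in WT mTEChi (46.6% and 31.8%). After quantile normalization the second split was 16 higher and 23 lower, against 32.6% and 42.8%. Col4a6 was at 7.51, 5.07 and 7.01 RPKM in WT cTEC and at 0.370, 0.327 and 0.380 RPKM in WT mTEClo, lower by -3.84 (SE 0.26) in mTEClo and by -3.60 in mTEChi. Col7a1 was at 21.5, 14.2 and 24.1 RPKM in WT cTEC and lower by -3.51 (SE 0.18) in mTEClo and by -2.72 in mTEChi. Col23a1 was lower by -3.20 and -2.88. Col18a1, at 132, 88.8 and 117 RPKM in WT cTEC, was lower by -1.21 in mTEClo and by -3.54 (SE 0.16) in mTEChi. Col12a1, at 70.5, 52.3 and 50.6 RPKM in WT cTEC, was lower by -0.98 and -2.41. Col8a2 and Col1a2 were also lower in mTEClo, by -3.0 and -3.13.

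Other chains were higher in the medullary populations. Col6a4 was at 0.371, 0.560 and 0.538 RPKM in WT cTEC and at 10.1, 8.33 and 11.1 RPKM in WT mTEClo, a rise by 4.08 (SE 0.29). Col2a1 rose by 3.96 (SE 0.30), to 7.47, 9.15 and 8.29 RPKM in mTEClo. Col9a2 rose by 3.18 (SE 0.22), from 0.793, 0.653 and 0.913 RPKM to 7.25, 7.66 and 8.77 RPKM. Col6a1 and Col6a2 rose by 1.50 and 1.99. In WT mTEChi the largest rises over WT cTEC were those of Col10a1 (6.62, SE 0.42), Col6a5 (4.90, SE 0.28) and Col22a1 (4.77, SE 0.30). Col22a1 was at 0.0284, 0.0492 and 0.0197 RPKM in WT cTEC and at 3.64, 3.53 and 3.30 RPKM in WT mTEChi. The fibroblast list summed to 420 ± 27.4 RPKM in WT cTEC, 109 ± 14.8 RPKM in WT mTEClo and 50.7 ± 2.80 RPKM in WT mTEChi, of which Dcn alone held 390, 72.1 and 15.7 RPKM. Of the 11 fibroblast markers, 5 were higher and 5 lower in WT mTEChi than in WT cTEC, and 3 were higher and 5 lower in WT mTEClo. Pdgfrb, Fap, Mfap5 and Pi16 went from 1.09, 1.68, 0.0900 and 0.0308 RPKM in WT cTEC to 11.1, 7.17, 3.54 and 2.40 RPKM in WT mTEChi. The pericyte and smooth muscle list ran from 201 to 325 RPKM in WT cTEC, with 6 of 7 markers higher and 1 lower in WT mTEClo and 3 higher and 3 lower in WT mTEChi. Of 9 endothelial markers, 8 were higher and 0 lower in WT mTEClo, and 6 higher and 1 lower in WT mTEChi. The part of these lists in the collagen levels was not tested.

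Chains that join in 1 trimer did not keep a fixed ratio. The Col1a1 to Col1a2 ratio of RPKM was 6.17 ± 1.43 (SD, n = 3) in WT mTEChi, 1.58 ± 0.557 in WT mTEClo and 0.323 ± 0.0823 in WT cTEC. It was 0.260 ± 0.0438 in KO mTEChi. Type I collagen is normally built with more of the Col1a1 chain than of the Col1a2 chain. The Col6a3 to Col6a1 ratio was 0.124 ± 0.0390 in WT mTEChi, 0.00042 ± 0.00013 in WT mTEClo and 0.00576 ± 0.00223 in KO mTEChi. The ratios in WT mTEClo and KO mTEChi rest on low numerators. Col6a3 ran from 0.0905 to 0.212 RPKM in WT mTEClo and from 0.0249 to 0.0356 RPKM in KO mTEChi. The Col6a1 to Col6a2 ratio varied less, between 1.20 and 1.93 over all 18 libraries, and the Col4a1 to Col4a2 ratio between 1.35 and 2.24. Both still differed by population. The Col4a1 to Col4a2 ratio averaged 1.46 in WT cTEC, 1.78 in WT mTEClo and 2.10 in WT mTEChi. In KO it averaged 1.41, 1.77 and 2.08. The Col6a1 to Col6a2 ratio averaged 1.73, 1.23 and 1.54 in the WT groups and 1.84, 1.27 and 1.45 in the KO groups, in the same order. Col4a1 and Col4a2 are neighbours on chr8 that point away from each other, with 2 bases between their intervals in the tables.

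**Figure D5:**
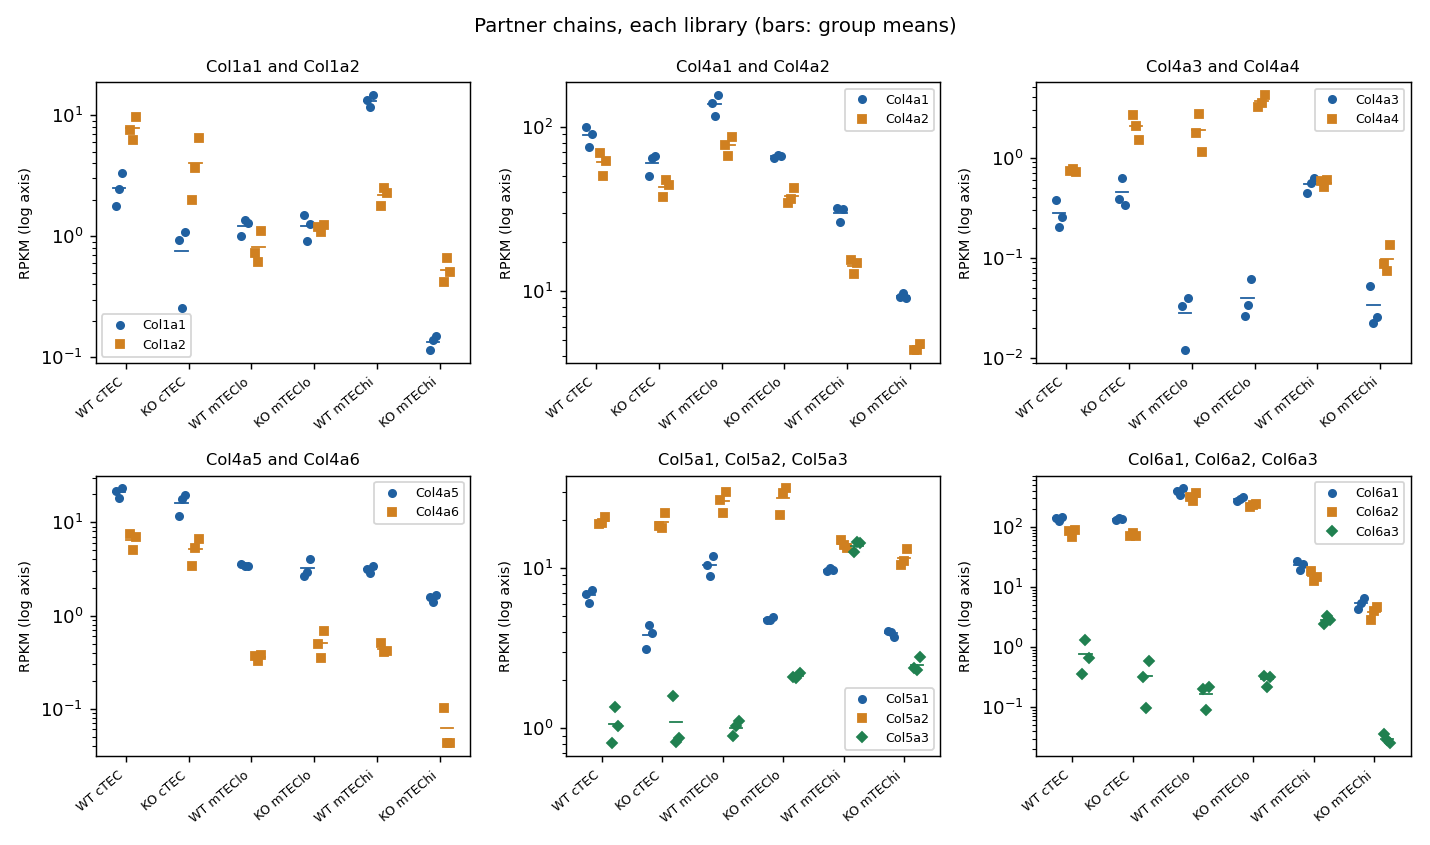
RPKM (log axis) of partner chains in each of the 18 libraries, with bars for group means of 3 libraries. Col4a1 lies above Col4a2 in all groups, at a mean ratio from 1.41 in KO cTEC to 2.10 in WT mTEChi. Col1a1 crosses over Col1a2, and its ratio to Col1a2 falls from 6.17 in WT mTEChi to 0.260 in KO mTEChi.

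The other type IV pairs share this head-to-head layout. Col4a4 and Col4a3 lie on chr1 with 71 bases between them, and Col4a6 and Col4a5 lie on the X chromosome with 1342 bases between them. Col4a3 was at 0.0334, 0.0120 and 0.0395 RPKM in WT mTEClo, where Col4a4 was at 1.75, 2.71 and 1.13 RPKM, a ratio of 0.0195 ± 0.0152. That ratio rests on a numerator under the filter value of 0.1 RPKM. In WT mTEChi the chains were nearly level, at a ratio of 0.968 ± 0.192. Col4a4 was higher in KO than in WT in mTEClo and cTEC, while Col4a3 was not called there (0.13 and 0.52). The Col4a5 to Col4a6 ratio was 3.28 ± 0.377 in WT cTEC, 9.70 ± 0.694 in WT mTEClo and 29.1 ± 11.7 in KO mTEChi. The last ratio rests on a low denominator, as Col4a6 was at 0.101, 0.0423 and 0.0430 RPKM in KO mTEChi. The sequences between or upstream of these starts are shown because they lie between genes whose levels parted. They are from the same RefSeq table, on the strand named, with the same capitals.
Between Col4a4 and Col4a3, chr1:82586850-82586920, minus strand (Col4a4): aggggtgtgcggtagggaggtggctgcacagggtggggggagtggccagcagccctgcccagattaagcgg
Upstream of Col4a6, chrX:141474077-141474326, minus strand: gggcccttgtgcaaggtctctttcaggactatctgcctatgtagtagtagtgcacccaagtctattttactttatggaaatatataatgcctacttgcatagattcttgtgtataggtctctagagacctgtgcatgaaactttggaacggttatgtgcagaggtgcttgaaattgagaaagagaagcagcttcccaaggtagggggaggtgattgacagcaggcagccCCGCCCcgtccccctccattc
Upstream of Col4a5, chrX:141475169-141475418, plus strand: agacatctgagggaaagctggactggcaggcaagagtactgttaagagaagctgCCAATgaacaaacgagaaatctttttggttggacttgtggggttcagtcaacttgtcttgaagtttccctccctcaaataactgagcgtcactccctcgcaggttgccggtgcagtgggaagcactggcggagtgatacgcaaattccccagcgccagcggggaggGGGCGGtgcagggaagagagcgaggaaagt
None of the 3 motifs was found in the 71 bases between Col4a4 and Col4a3. GGGCGG, on either strand, was found upstream of Col4a6 and of Col4a5, and CCAAT upstream of Col4a5.

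Genes that make, bind and cut collagen were listed beside the chains. The counts for KO mTEChi are read against the 52.8% of all tested genes that were lower and 9.57% that were higher there. Of 29 tested genes of collagen synthesis and processing, 19 were lower and 3 higher in KO mTEChi, with a median of -0.47 against -0.39 over all tested genes. Sparc, a collagen-binding secreted protein, fell by 3.80, and Lox, which cross-links collagen, fell by 2.23. Lepre1 and P4ha1, which hydroxylate collagen prolines, rose by 0.87 and 0.68. Between WT mTEClo and WT mTEChi, 20 of these 29 genes were lower in mTEChi and 7 higher, against 31.1% and 41.6% of all tested genes. The collagen chaperone Serpinh1, named after its values were seen, was at 142 ± 10.1 RPKM (SD, n = 3) in WT mTEClo, 21.3 ± 2.41 RPKM in WT mTEChi and 5.74 ± 0.476 RPKM in KO mTEChi. Of 10 collagen receptors, 7 were lower and 1 higher in KO mTEChi (median -0.88), with Mrc2 and Ddr1 lower (-3.42 and -1.24) and Itga1 higher (0.67). All 6 collagen-cleaving proteases were lower (median -2.32), with Mmp13 at -3.63 and Mmp8 at -2.60. The protease Mmp1a and the receptor Gp6 averaged 0.456 and 0.244 RPKM in WT mTEChi. They averaged at most 0.0114 and 0.0286 RPKM in any other group and passed the filter only through WT mTEChi. A fall in KO mTEChi was therefore built into their passing. Of 15 laminin and basement membrane genes, 13 were lower and 1 higher (median -1.07). Nid1, which links laminin to type IV collagen, fell by 4.95, the laminin chain Lamc3 fell by 3.63, while the proteoglycan Hspg2 rose by 0.35. Lamc3 averaged 1.45 RPKM in WT mTEChi and at most 0.0288 RPKM in any other group. It passed the filter only through WT mTEChi, so its fall was built into its passing. Of 5 hemidesmosome genes, the group of Col17a1, 2 were lower (Cd151 at -1.13 and Itgb4 at -0.47) and 1 higher (Itga6 at 0.38), with a median of -0.21.

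Markers of other cell types are given against the same 52.8% of all tested genes lower and 9.57% higher in KO mTEChi. All 5 osteoblast markers were lower in KO mTEChi, and their summed level ran from 29.7 to 32.1 RPKM in WT mTEChi, from 2.65 to 3.60 RPKM in KO mTEChi and up to 0.899 RPKM in WT mTEClo. Of these markers, Sp7 averaged 1.61 RPKM in WT mTEChi and at most 0.0282 RPKM in any other group. It passed the filter only through WT mTEChi, so its fall was built into its passing. Of 8 tested chondrocyte markers, 7 were lower and 1 higher. Acan, the cartilage proteoglycan, also named after its values were seen, was at 2.38 ± 0.233 RPKM (SD, n = 3) in WT mTEChi and at 0.00313 RPKM in KO mTEChi. Acan and the chondrocyte marker Matn3 averaged at most 0.0264 and 0.0088 RPKM in any group other than WT mTEChi. Both passed the filter only through WT mTEChi, so their falls were built in as well. Such passing was not counted over the whole marker lists. Of 11 fibroblast markers 9 were lower and 1, Dcn, was higher (1.04). The summed fibroblast level ran from 47.5 to 52.4 RPKM in WT mTEChi and from 40.9 to 50.7 RPKM in KO mTEChi. Of 9 endothelial markers, 6 were lower and 0 higher, with a median of -1.51, and their summed level ran from 18.1 to 23.0 RPKM in WT mTEChi and from 9.75 to 11.7 RPKM in KO mTEChi. Of 7 pericyte and smooth muscle markers, 3 were lower (Acta2, Notch3 and Tagln) and 2 higher (Cspg4 and Des). Acta2 went from 16.0 RPKM in WT mTEChi to 3.04 RPKM in KO mTEChi and Notch3 from 3.58 to 0.846 RPKM. Of 7 haematopoietic markers, 2 were lower and 1 higher, and of 5 thymic epithelial markers 3 were lower and 1 higher. The part of these markers in the collagen result was not tested.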

How the data were processed

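Total RNA of sorted cTEC, mTEClo and mTEChi from WT and Aire KO mice was sequenced, with 3 libraries in each of 6 groups. The authors deposited 1 table per library with RPKM per gene and, per gene, a signal that sums the aligned bases. Build mm10 and CASAVA 1.8.2 are named per the submitters' processing notes. For aligner settings, gene annotation and strand use, the sources used here give nothing, and the deposited values are not read counts, so no count model was used. Aligned bases on genes were 4.54 to 18.1 Gb per library, and 0 pairs of libraries held identical values.

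Groups came from the labels. The 19451 of 23063 genes that reached 0.1 RPKM in 3 or more libraries were fitted as log2(RPKM + 0.1) with limma 3.58.1 in R 4.3.3, using 6 group means, an intensity trend and Benjamini-Hochberg adjustment over all tested genes. The pseudocount of 0.1 makes the fold changes of low genes smaller. A call is an adjusted p under 0.05. The script was tested on simulated data. An exact permutation test of 3 against 3 libraries cannot go below p = 0.1. Alternatives were pseudocounts of 0.01 and 1, no filter and a filter of 1 RPKM, quantile normalization, centring on a housekeeping list, a fit with only the groups compared, a replicate block, and leaving out each library.

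Values of each library are given for Col1a1, Col5a1 and Col6a2, for the 3 genes with the highest mean, for the 3 largest rises and falls of each comparison whose libraries do not overlap and whose higher group averages 1 RPKM or more, and for their partner chains. Other genes are given by fold change or group mean, and exceptions are named as such. The collagen genes and the lists were chosen with earlier results of these data known. Replicate numbers were checked for pairing by correlating deviations from group means. In WT mTEClo against WT cTEC the numbers, taken from the sample titles, gave 0.107, 0.168 and 0.154. Upstream sequences came from RefSeq (GRCm38.p6), matched by symbol for 35 of 44 genes. Of those, 30 windows had the start given in the deposited tables.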

Additional observations from a re-analysis of the deposited data

Results flagged for a closer look

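The genotype effect, KO minus WT on the log2 scale, differed between populations for several collagen genes by a test of the difference itself (limma, adjusted p over all tested genes). For Col1a1 the effect in mTEChi minus that in mTEClo was -5.81 (adjusted p = 1.8e-07), and minus that in cTEC it was -4.06 (adjusted p = 6.7e-06). Col10a1 differed by -3.97 from mTEClo and by -4.94 from cTEC, and Col2a1 by -3.92 and -4.63. Col6a3, Col7a1 and Col5a3 differed from mTEClo by -5.04, -3.73 and -3.43. In Col7a1 and Col5a3 the genotype effect had opposite signs, with KO lower in mTEChi and higher in mTEClo.

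Smaller differences were found for Col17a1 (-0.70, limma adjusted p = 0.0062) and Col4a1 (-0.63, limma adjusted p = 0.009) against mTEClo. With housekeeping centring these were -0.30 and -0.24 and no longer called. Col19a1 was the gene with a higher effect in mTEChi than in cTEC (0.54, limma adjusted p = 0.019).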

How the results depend on the processing

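After quantile normalization the collagen genes called in WT mTEChi against WT cTEC were 16 higher and 23 lower. The genotype effect in mTEChi was then called higher for 2 and lower for 22 genes relative to mTEClo, and higher for 3 and lower for 19 relative to cTEC. Relative to cTEC, 2 were called higher with a pseudocount of 1, with housekeeping centring and with the replicate block. With only the 6 cTEC libraries, 0 genes were called higher and 0 lower in KO cTEC with limma, against 5 and 9 at an unadjusted p under 0.05. The replicate block left 1 gene higher in KO mTEChi in place of 2. The deviations of same-numbered libraries correlated above 0.1 in every pair only for WT mTEClo against WT cTEC. They were also positive, but lower in at least 1 pair, for WT mTEChi against WT mTEClo (0.039, 0.133 and 0.095), WT mTEChi against WT cTEC (0.052, 0.060 and 0.066) and KO mTEChi against KO mTEClo (0.040, 0.006 and 0.138). For KO against WT mTEChi they were -0.013, -0.024 and -0.027. The block gave 20 higher and 17 lower in WT mTEClo against WT cTEC, as without it. Leaving out each library gave 1 to 2 genes higher for the effect relative to cTEC, with 2 without WT cTEC replicate 2 or KO cTEC replicate 3. It gave 5 to 7 lower in KO mTEClo, 1 to 1 higher in KO mTEChi and 7 to 15 lower in KO cTEC.

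Of 2347 recomputed values of single genes, 2216 kept direction and call, 94 lost the call, 14 gained it and 23 changed sign. With a pseudocount of 1, Col1a1 in KO mTEClo was 0.0013 and the Col12a1 effect in mTEChi minus mTEClo 0.047. After quantile normalization, Col17a1, Col4a4 and Col4a6 in KO mTEChi were 0.068, 0.055 and 0.039, Col5a1 and Col25a1 in WT mTEChi against WT mTEClo 0.0085 and -0.55, and the Col12a1 effect 0.26. With housekeeping centring, Col17a1 was 0.19, Col6a1 in KO cTEC 0.0046 and the Col12a1 effect 0.36. Leaving out 1 library at a time moved 5 of these values across 0. Col6a1 in KO cTEC ran from -0.085 to 0.023, Col1a1 in KO mTEClo from -0.15 to 0.17, Col5a1 in WT mTEChi against WT mTEClo from -0.19 to 0.0082, Col17a1 in KO mTEChi from -0.095 to 0.029, and the Col12a1 effect from -0.13 to 0.026. The cause of these changes was not tested. For genes near 0.1 RPKM the pseudocount limits the size of a fold change.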
